A study of Glycine soja and Glycine max with 13 samples.

Results

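Phytic acid is the main phosphate store of the soybean seed, and 4 genes of its synthesis and transport were followed through 13 soybean lines. They were chosen by identifier for their known role, with earlier results of these data known. They are 4 of the 43517 genes in the table of read counts. Glyma.11G238800 is MIPS1, Glyma.14G072200 is IPK1, and Glyma.03G167800 and Glyma.19G169000 are the MRP-type transporter genes of the low phytate loci. All 4 had enough counts to be tested.

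RNA was sequenced from field-grown seeds, 13 days after flowering. The cultivated group held 6 lines of Glycine max (df12, df14, df17, df3, df36 and df43) and the wild group 7 lines of Glycine soja, the crop's wild relative (ys1, ys16, ys17, ys23, ys26, ys29 and ys34). All lines were sampled at the same age, no treatment is named in the labels, and each line was 1 sample, so n counts lines and SDs are over lines. How many plants or seeds made up a sample is not stated in the labels.

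Phytic acid is built on an inositol ring. MIPS makes the ring from a sugar phosphate and is the first committed step, after which kinases add phosphates one by one. IPK1 adds the last of them, and MRP-type ABC transporters carry the finished phytic acid into the vacuole, where it is laid down with storage protein. In soybean, inherited loss of MIPS1, of IPK1, or of both transporter copies lowers seed phytate, which makes these genes targets of breeding.

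Seeds of the same age differed widely in how far storage protein transcripts had accumulated. A storage score, the mean log2 CPM of 8 identifiers known from the literature as glycinin and β-conglycinin genes, ran from 0.0651 in ys34 to 9.25 in df12. CPM is the read count scaled to a fixed total per library, with TMM factors, and raw totals ran from 12.7 M to 26.0 M counts (median 16.6 M). The score was 1.001, 2.27, 3.60, 4.84, 6.83 and 9.25 in df14, df36, df3, df43, df17 and df12. In the wild lines it was 0.0651, 1.97, 2.06, 6.53, 7.04, 7.40 and 8.99 in ys34, ys16, ys29, ys17, ys23, ys26 and ys1. Both groups thus held lines with low and with high scores. No wild line had a score between 2.06 (ys29) and 6.53 (ys17). Relations with the score within wild lines therefore partly contrast lines on either side of this gap. Storage transcripts, which mark seed tissue, were detected in every line, from 22.3 CPM in sum in ys34 to 34826 CPM in ys1. The names of the 8 identifiers could not be checked here, and counts of 2 of them, Glyma.20G148300 and Glyma.20G148400, named after their values were seen, differed by at most 1.09% in any line.

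Over all lines together MIPS1 and IPK1 were the variable members, and both tended to be higher in lines with more storage protein transcript. MIPS1 had exceptions, such as 765 CPM in ys17 at a score of 6.53 and 1419 CPM in df36 at 2.27. MIPS1 stood at 2410 CPM in df12 and at 979 to 1483 CPM in the other cultivated lines. In wild lines it was lowest in ys34, at 353 CPM, then 472 in ys29, 765 in ys17, 792 in ys16, 1399 in ys1, 1548 in ys23 and 1843 CPM in ys26. The highest line thus held 6.83 times the lowest, and ys34, ys29, ys17 and ys16 lay below every cultivated line. Counts of this gene were between 5194 and 33971 per line, so only 3 of the 12 neighbouring pairs in the order of levels had overlapping 95% Poisson intervals (df36 with ys1, ys1 with df43, df14 with df3).

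IPK1, the enzyme of the last phosphorylation, stood at 4.01 CPM in df36, 4.50 in df14, 4.86 in df3, 9.02 in df17, 9.40 in df43 and 23.5 CPM in df12. In wild lines it stood at 3.67 CPM in ys34, 4.61 in ys29, 4.78 in ys16, 9.76 in ys17, 13.7 in ys23, 15.5 in ys26 and 16.6 CPM in ys1. The order of the wild lines was nearly that of their storage scores. The highest line held 6.40 times the lowest. With 54 to 331 counts per line, 9 of the 12 neighbouring pairs could not be separated by counting error, among them all pairs from df3 down to ys34.

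Over all lines together both transporter genes were steadier, and their lowest lines were the same. Among cultivated lines alone they were steadier than IPK1 but not than MIPS1. The SD of log2 CPM there was 0.48 for MIPS1 and 0.95 for IPK1. It was 0.52 for Glyma.03G167800 and 0.59 for Glyma.19G169000. Glyma.03G167800 ranged from 10.7 CPM in df36 and 11.7 CPM in df43 to 25.2 CPM in df17 among cultivated lines, with a median of 20.04 CPM. Wild lines ran from 18.4 CPM in ys17 to 26.2 CPM in ys23, with a median of 23.8 CPM. Its copy Glyma.19G169000 stood at 12.4 CPM in df36, 15.9 in df43, 19.7 in df12, 20.7 in df14, 33.5 in df17 and 35.1 CPM in df3. In wild lines it stood between 25.7 CPM in ys26 and 34.6 CPM in ys1, with a median of 26.9 CPM. The groups overlapped for both copies. The highest line held 2.45 times the lowest for Glyma.03G167800 and 2.83 times for Glyma.19G169000, and 11 and 10 of the 12 neighbouring pairs had overlapping counting intervals. The neighbours without overlap were ys17 and df43 for Glyma.03G167800. For Glyma.19G169000 they were ys26 with df14 and df43 with df36. Levels are not compared between genes, since their lengths were not used here.

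**Figure D1:**
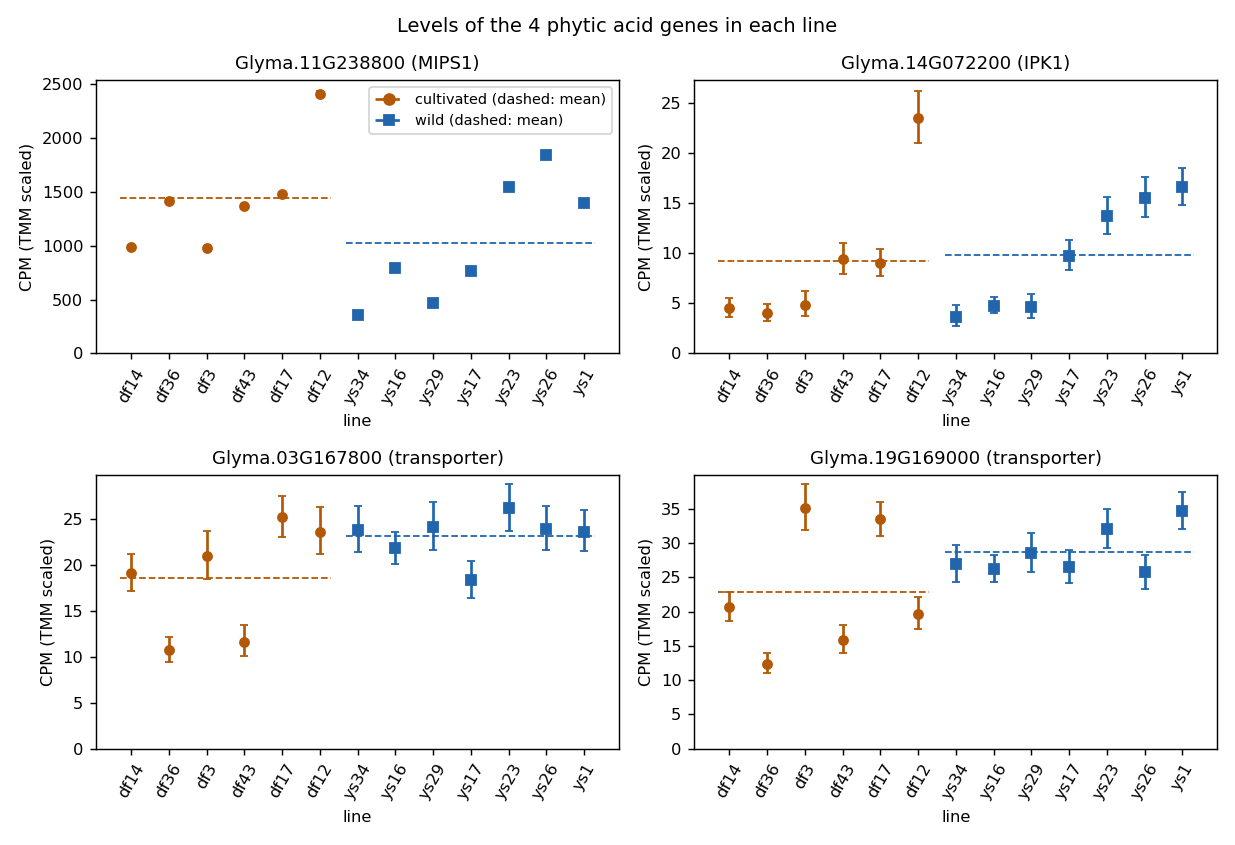
Level of each gene in each line, in CPM on a linear axis from 0, with lines ordered by storage score within each group. Bars are 95% Poisson intervals of the counts and dashed lines are group means; df36 and df43 are the lowest lines of both transporter genes, at 10.7 and 11.7 CPM of Glyma.03G167800.

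In a fit with the group alone, none of the 4 genes was called different between cultivated and wild seeds. Among all 31420 tested genes 0.0446% were called different (quasi-likelihood F-test of edgeR, adjusted p under 0.05 by Benjamini-Hochberg), and 0 of the 4 members were. In this fit no member reached an unadjusted p under 0.05 either, against 18.9% of all tested genes. DESeq2 called 0 of the 4, against 1279 of the 30790 genes to which it gave an adjusted p (4.15%). No member had all lines of one group above all lines of the other, which 1.1% of tested genes had. The median log2 fold change of the members, cultivated over wild, was -0.21, and that of all tested genes was -0.015.

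Over the 6 cultivated lines MIPS1 averaged 1442 ± 522 CPM (SD), and over the 7 wild lines 1025 ± 572 CPM. The log2 fold change of 0.49 had a standard error of 0.37 (edgeR adjusted p = 0.494), and the 95% interval of the ratio of cultivated to wild ran from 0.809 to 2.45, which includes equal levels. With the storage score as a further term it became 0.66, at a standard error of 0.24 (edgeR adjusted p = 0.164). With 1 surrogate variable it was 0.54, at a standard error of 0.22 (edgeR adjusted p = 0.188). Both standard errors were below that of the fit with the group alone, to which the interval above belongs. In the fit with the group alone the value was 0.28 without df12, 0.70 without ys26 and 0.19 without ys29 and ys34 together. The MIPS1 difference passed under none of the alternatives tried (adjusted p of 0.164 to 0.808). IPK1 averaged 9.21 ± 7.38 CPM in cultivated and 9.80 ± 5.53 CPM in wild lines, a log2 fold change of -0.094 (SE 0.46, edgeR adjusted p = 0.935, ratio 0.473 to 1.86). This value turned positive, to at most 0.085, without df14, df36, df3, ys1, ys23 or ys26, each left out alone.

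SDs are over the same 6 and 7 lines throughout. Glyma.03G167800 averaged 18.5 ± 6.09 CPM in cultivated and 23.1 ± 2.45 CPM in wild lines, a log2 fold change of -0.32 (SE 0.20, edgeR adjusted p = 0.39, ratio 0.599 to 1.07). Glyma.19G169000 averaged 22.9 ± 9.33 CPM and 28.6 ± 3.40 CPM, a log2 fold change of -0.33 (SE 0.22, edgeR adjusted p = 0.435, ratio 0.577 to 1.10). In both copies df36 and df43 were the lowest lines and lay below every wild line. For Glyma.19G169000, df12 (19.7 CPM) and df14 (20.7 CPM) lay below every wild line as well. Without df36 and df43, left out after their values were seen, the log2 fold changes were -0.049 (edgeR adjusted p = 0.936) and -0.065 (edgeR adjusted p = 0.943). Leaving out the lowest cultivated lines shrinks such a difference by construction.

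Along the storage score, IPK1 and MIPS1 rose and neither transporter passed the test. In a fit with the group as a further term, 2 of the 4 members had a slope with an edgeR adjusted p under 0.05, both positive. Past that threshold were 5.48% of all tested genes, 3.6% with a positive and 1.88% with a negative slope. DESeq2 called the slopes of MIPS1 and IPK1 too, beside 9.68% of all tested genes. The median slope was 0.11 for the members and -0.00083 for all tested genes, in log2 units of level per unit of score. The score is itself in log2 units, so the slopes are small beside the rise of storage transcripts themselves.

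IPK1 gained 0.28 log2 units per unit of score (SE 0.027, edgeR adjusted p = 4.96e-05), or 1.22-fold with a 95% interval of 1.17 to 1.27. Over the whole range of scores, 9.19 units, this amounts to a fitted 5.99-fold. Pearson r between its log2 CPM and the score was 0.961 (permutation p = 1e-05, the lowest value possible with 100000 permutations; adjusted p = 4e-05 over 4 members), and Spearman rho was 0.945 (permutation p = 3e-05, adjusted p = 0.00012). Leaving out ys34 and df12, whose scores lay farthest from the median, gave r = 0.951. It was 0.938 within cultivated lines (exact permutation p = 0.00833, n = 6) and 0.985 within wild lines (exact permutation p = 0.000397, n = 7).

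MIPS1 gained 0.19 log2 units per unit of score (SE 0.042, edgeR adjusted p = 0.0152), or 1.14-fold with an interval of 1.07 to 1.21, a fitted 3.35-fold over the range. Its r with the score was 0.745 (permutation p = 0.00279, adjusted p = 0.00558) and its rho 0.775 (permutation p = 0.00283, adjusted p = 0.00566), with r = 0.569 without ys34 and df12. Within cultivated lines r was 0.844 (exact permutation p = 0.0403, n = 6), but rho was 0.714 (exact permutation p = 0.136). Within wild lines r was 0.876 (exact permutation p = 0.0185, n = 7) and rho 0.786 (exact permutation p = 0.048). These p-values within groups were not adjusted. The call of this slope was lost without df12 (edgeR adjusted p = 0.0578) or ys34 (edgeR adjusted p = 0.0733), and without ys29 and ys34 together (edgeR adjusted p = 0.193). In seeds measured whole, more cells of a type and more RNA per cell cannot be told apart.

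The transporter genes had slopes of 0.033 (SE 0.031, edgeR adjusted p = 0.657) for Glyma.03G167800 and 0.032 (SE 0.037, edgeR adjusted p = 0.73) for Glyma.19G169000. Their 95% intervals, 0.976- to 1.07-fold and 0.968- to 1.08-fold per unit of score, lay below that of IPK1. The slopes were not shown to differ between cultivated and wild lines for any member. The difference of slopes, cultivated minus wild, was -0.10 for MIPS1 (SE 0.080), 0.032 for IPK1 (SE 0.056), 0.079 for Glyma.03G167800 (SE 0.063) and 0.016 for Glyma.19G169000 (SE 0.079). Adjusted p-values of edgeR for these differences were 0.983 to 0.995. Over all tested genes this test called 0 (0%), with 3.32% at an unadjusted p under 0.05 and 4 genes (0.0127%) called by DESeq2.

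**Figure D2:**
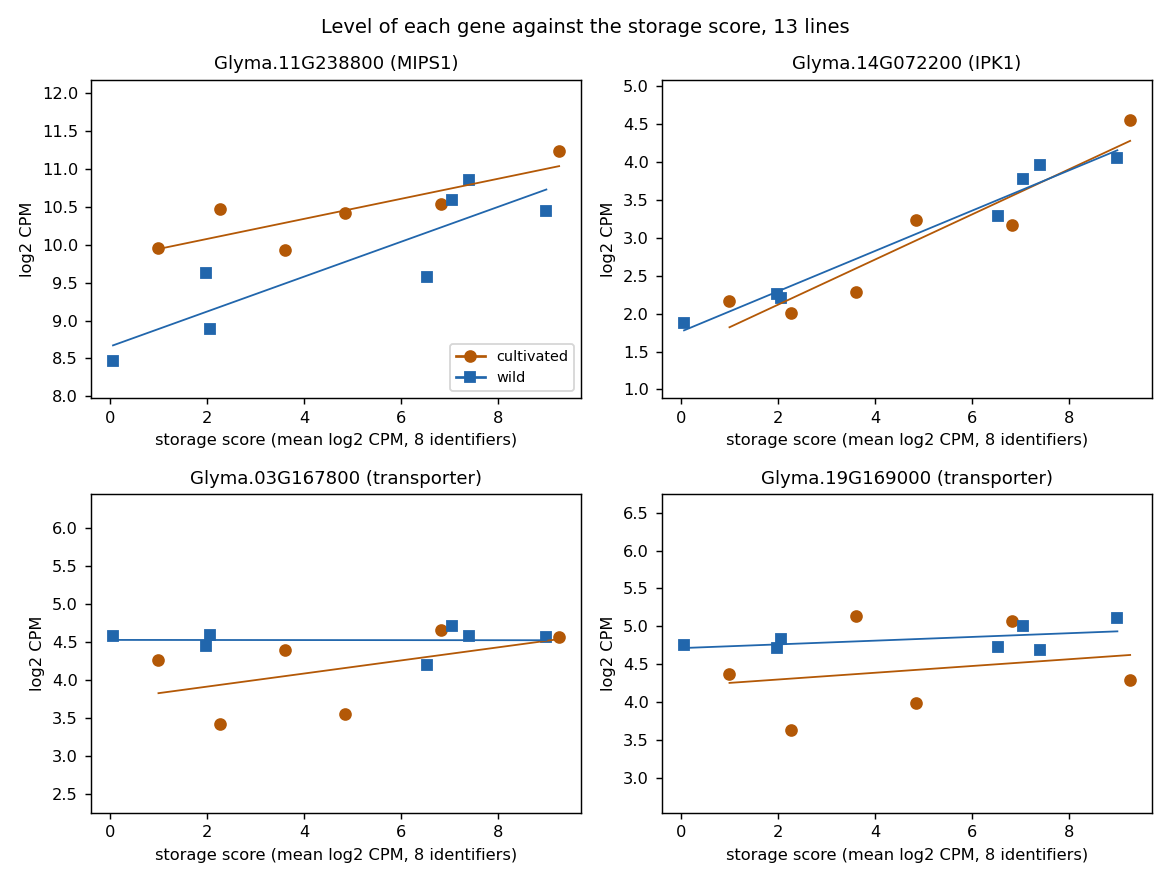
Log2 CPM of each gene against the storage score in 13 lines, with a least-squares line per group and vertical axes of equal span. IPK1 follows the score in both groups (r = 0.961 over all lines), MIPS1 less tightly (r = 0.745), and neither transporter gene has a slope past the threshold.

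**Figure D3:**
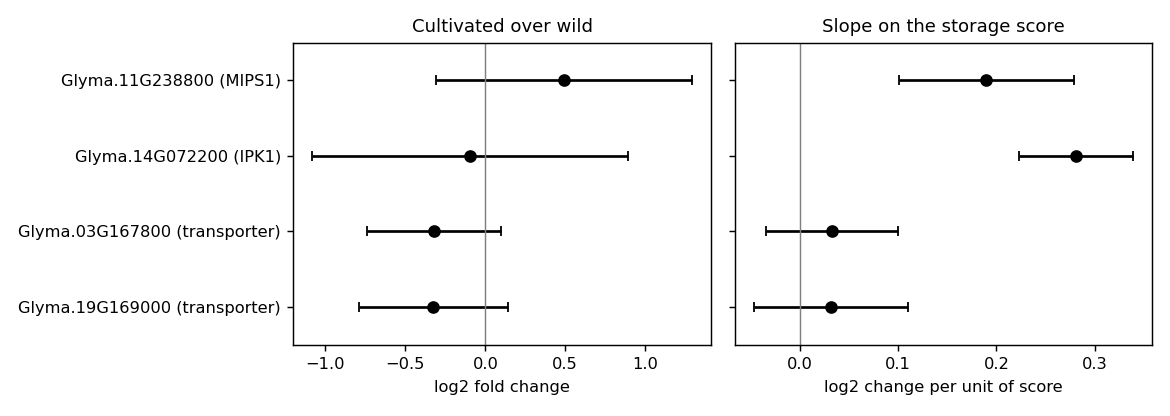
Fitted log2 fold change of cultivated over wild (left) and fitted slope on the storage score (right) for each gene, with 95% intervals from the edgeR fits. All 4 intervals on the left include 0, and on the right those of MIPS1 and IPK1 lie above 0.

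Whether the members differ from each other along the score was tested on ratios within each library, which do not depend on how libraries are scaled. This test was added after the slopes had been seen. The log2 ratio of IPK1 to Glyma.03G167800 was highest in df12, at -0.0087, and lowest in ys34, at -2.69, and it went with the score (r = 0.864, permutation adjusted p = 0.00288 over 6 ratios; rho = 0.830, adjusted p = 0.00258). The ratio of IPK1 to Glyma.19G169000 did so too (r = 0.803, permutation adjusted p = 0.00375; rho = 0.830, adjusted p = 0.00258). Without ys34 and df12 these r were 0.782 and 0.694. Within wild lines they were 0.990 and 0.964 (exact permutation p = 0.000794 and 0.00337, n = 7), and within cultivated lines 0.722 and 0.694 (exact permutation p = 0.113 and 0.122, n = 6). IPK1 thus rose relative to both transporter copies.

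For MIPS1 the ratios did not pass over all 13 lines. The ratio of MIPS1 to Glyma.03G167800 had r = 0.509 with the score (permutation adjusted p = 0.139; rho = 0.593, adjusted p = 0.0726) and that to Glyma.19G169000 had r = 0.480 (permutation adjusted p = 0.139; rho = 0.516, adjusted p = 0.112). The ratio of MIPS1 to IPK1 had r = -0.456 (permutation adjusted p = 0.139; rho = -0.341, adjusted p = 0.306). Without ys34 and df12 these r were 0.223, 0.131 and -0.638. Within wild lines the ratios of MIPS1 to Glyma.03G167800 and to Glyma.19G169000 had r = 0.898 and 0.824 (exact permutation p = 0.00377 and 0.024, n = 7), and within cultivated lines 0.213 and 0.312 (exact permutation p = 0.669 and 0.531, n = 6). The ratio of MIPS1 to IPK1 had r = -0.831 within cultivated lines (exact permutation p = 0.0403, n = 6) and -0.331 within wild lines (exact permutation p = 0.482, n = 7). Calls over all lines turned on single lines. Without df36 both transporter ratios passed (r = 0.698 and 0.662, permutation adjusted p = 0.0204 and 0.0285), and without ys34 the ratio to IPK1 did (r = -0.657, permutation adjusted p = 0.041). The ratio of the transporter copies had r = 0.015 with the score (permutation adjusted p = 0.962; rho = -0.104, adjusted p = 0.738).

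Between the groups, the balance of MIPS1 to the later steps was on average higher in cultivated seeds, but not past adjustment over the 6 ratios. The cultivated lines had a log2 ratio of MIPS1 to IPK1 of 7.52 ± 0.60 (SD, n = 6) and the wild lines one of 6.71 ± 0.36 (SD, n = 7), from 6.29 in ys17 to 8.46 in df36. The difference was 0.80 (exact permutation over all splits of the lines, two-sided p = 0.0111, adjusted p = 0.0664). The exact permutation adjusted p was 0.0303 without df12 and 0.039 without ys16. It stayed above 0.05 without any other single line, up to 0.167 without df36. The ratios of MIPS1 to Glyma.03G167800 and to Glyma.19G169000 differed by 1.03 and 1.06 (exact permutation p = 0.0402 and 0.0478, adjusted p = 0.0956 for both). For the remaining 3 ratios the differences were 0.030 to 0.26 (exact permutation adjusted p of 0.773 to 0.845), and the groups overlapped for all 6.

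Across lines, MIPS1 and IPK1 varied together, with r = 0.736 between their log2 CPM (permutation p = 0.00353, adjusted p = 0.0106 over 6 pairs of members) and rho = 0.648 (permutation p = 0.0199, adjusted p = 0.119). The relation of ranks thus did not pass. Without ys34 and ys29, the lines farthest from the median of MIPS1, r was 0.685, and without df12 it was 0.660 (permutation adjusted p = 0.0573). Within wild lines r was 0.923 (exact permutation p = 0.00813; rho = 0.857, exact p = 0.0238, n = 7). Within cultivated lines it was 0.862 (exact permutation p = 0.0444; rho = 0.486, exact p = 0.356, n = 6), where df12 was highest in both genes.

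The transporter copies had r = 0.833 (permutation p = 0.00152, adjusted p = 0.00912) and rho = 0.582 (permutation p = 0.0409, adjusted p = 0.123). This relation rests on df36 and df43, without which r was 0.345. It was 0.816 within cultivated lines (exact permutation p = 0.0625, n = 6) and 0.458 within wild lines (exact permutation p = 0.289, n = 7). The other 4 pairs, each of a synthesis gene with a transporter copy, had r between -0.222 and 0.299 (permutation adjusted p of 0.67 to 0.731).

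**Figure D4:**
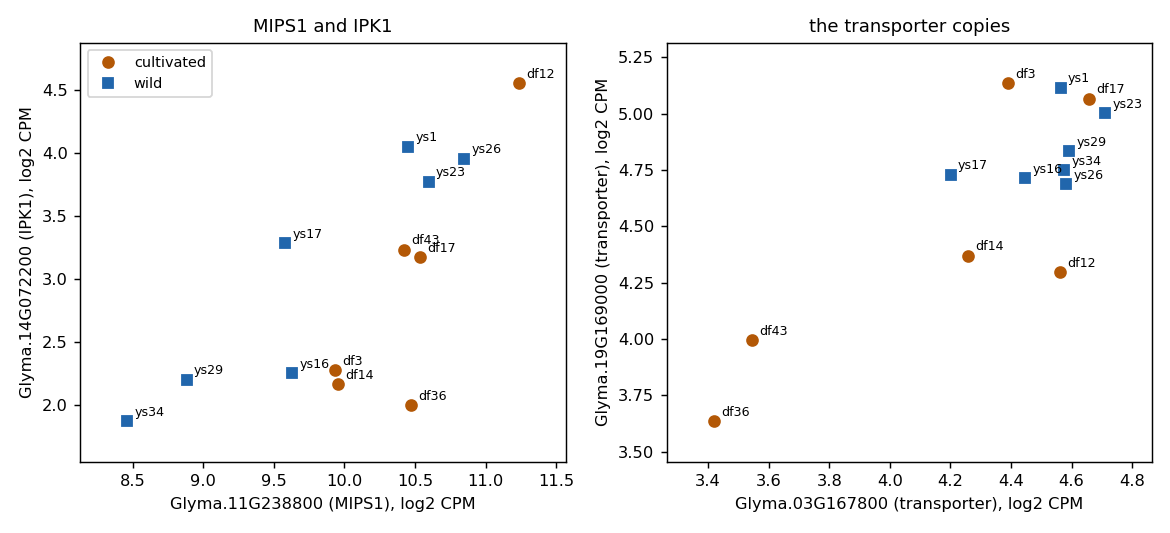
Log2 CPM of IPK1 against MIPS1 (left) and of Glyma.19G169000 against Glyma.03G167800 (right), 1 point per line. On the right df36 and df43 lie apart at the lower left, and r falls from 0.833 to 0.345 without them.

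The transporter copies may share reads, since the sources used here do not say how reads matching both were counted. Their balance was followed as the share of Glyma.03G167800 in the summed raw counts of both, which is not corrected for gene length. It was 37.4% in df3, 42.3% in df43, 43.0% in df17, 46.3% in df36, 48.1% in df14 and 54.6% in df12. In wild lines it ran from 40.6% in ys1 to 48.2% in ys26, with 45.0% in ys23. Wilson 95% intervals were 2.71 to 4.60 percentage points wide on either side, from 440 to 1297 summed counts, and cover counting error only. Both extremes were cultivated lines, and the intervals of df3 (33.9 to 41.0%) and df12 (50.6 to 58.5%) did not overlap. The shares varied between lines by more than counting error (chi-square per degree of freedom of 5.33). The cultivated lines averaged 45.3 ± 5.87% (SD, n = 6) and the wild lines 44.7 ± 2.90% (SD, n = 7), a difference smaller than either SD (two-sided p = 0.837 by exact permutation).

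**Figure D5:**
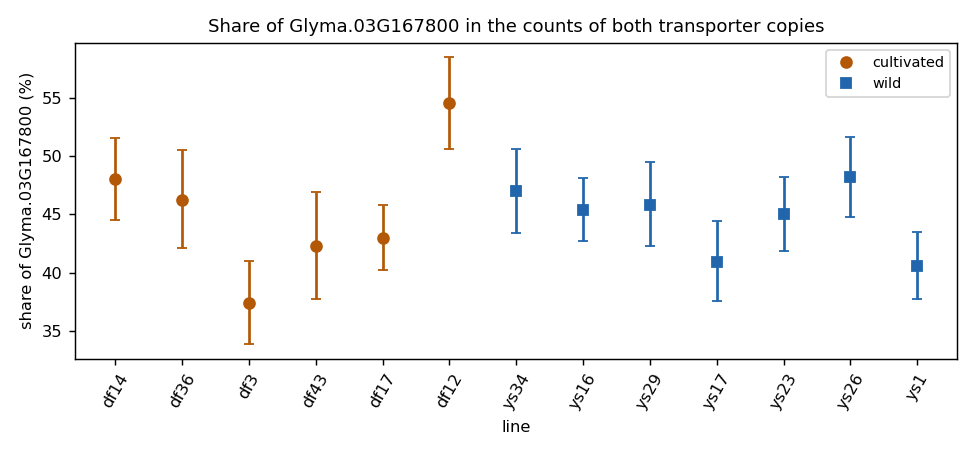
Share of Glyma.03G167800 in the counts of both transporter copies, in percent, in each line, ordered by storage score within groups; the axis does not start at 0. Bars are Wilson 95% intervals; df3 (37.4%) and df12 (54.6%) are the extremes and the wild lines lie between them.

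Glyma.19G169000 varied less among wild than among cultivated lines. The SD of log2 CPM of Glyma.19G169000 was 0.59 among cultivated and 0.16 among wild lines, a log2 ratio of -1.85 (two-sided exact permutation p = 0.00466, adjusted p = 0.0186 over 4 members). Values were not centred on their group means before the splits. The p-values of SD ratios thus take in differences between group means as well as in spread. Leaving out df17 or df3, its highest cultivated lines, raised the exact adjusted p to 0.0556 and 0.106. The call was also lost without df36 and df43 together, left out after their values were seen (log2 ratio -1.44, exact permutation adjusted p = 0.121). For Glyma.03G167800 the SDs were 0.52 and 0.16 (log2 ratio -1.70, exact permutation adjusted p = 0.305), so its difference did not pass. That ratio was -2.65 without ys17 (exact permutation adjusted p = 0.0996) and -0.13 without df36 and df43 (exact permutation adjusted p = 0.897). For MIPS1 they were 0.48 and 0.90, and for IPK1 0.95 and 0.91 (exact permutation adjusted p = 0.305 and 0.894). The log2 ratio for MIPS1, 0.92, was 1.61 without df12 (exact permutation adjusted p = 0.0505) and 0.55 without df36 and df43 (exact permutation adjusted p = 0.804). Over all 13 lines the SD was 0.78 for MIPS1 and 0.89 for IPK1, which 18.6% and 13.6% of tested genes exceeded. It was 0.41 for Glyma.03G167800 and 0.45 for Glyma.19G169000, which 59.6% and 52.2% exceeded, against a median of 0.47 over all tested genes.

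The genes most like each member were sought among the 17436 tested genes whose log2 CPM averaged at least 3, by Pearson r of log2 CPM over the 13 lines, as a description of these libraries. Glyma.09G171600 was most like MIPS1 (r = 0.977, 27.0 to 108 CPM), and 453 genes had r above 0.8 with it. Glyma.15G026300 was most like IPK1 (r = 0.970), and it ranged from 0.733 to 728 CPM where IPK1 ranged from 3.67 to 23.5 CPM. Glyma.18G003500 was most like Glyma.03G167800 (r = 0.9748), and Glyma.04G096100 most like Glyma.19G169000 (r = 0.969). The transporter copies were not each other's closest match: each had r = 0.833 with the other, place 1106 in the order for Glyma.03G167800 and place 961 for Glyma.19G169000. The files pair no product with these 4 closest genes.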

How the data were processed

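The authors deposited whole-number read counts per gene for 43517 soybean identifiers, 1 column per line, matched to samples by line name. A stranded mRNA kit was used, per the labels' protocols. Trim Galore 0.3.3, TopHat2, SAMtools and edgeR appear in the submitters' processing notes, with no roles. Not given in the sources used here are the counting tool, its use of strand, and the build and annotation.

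The names of the 4 genes came with their identifiers, and those of the storage list (10 identifiers, 8 tested) from the literature. None could be checked: 0 of 59365 rows of the RefSeq table (Glycine soja, ASM419377v2) matched an identifier. For this reason 3 listed pathway identifiers were not described, and sequences, positions and lengths were not used. Members, lists and tests were chosen with earlier results of these data known.

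From the counts, 31420 genes passed the edgeR expression filter and were scaled by TMM factors (edgeR 4.0.16, R 4.3.3). Quasi-likelihood F-tests covered the group, the slope on the storage score with the group as a term, and their interaction, with Benjamini-Hochberg adjustment over all tested genes at 0.05. A standard error is the log2 change over the root of F, and log2 CPM used a prior count of 2. Single values were tested by exact permutation over all splits of the 13 lines, and relations by 100000 permutations, or exactly with 6 or 7 lines (Python 3.11.15, numpy 2.4.6, scipy 1.17.1). Ratios added 0.5 to each count. The named genes were the members and, for each, the gene most like it; 2 storage identifiers were named after their values were seen.

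Totals of 12.7 M to 26.0 M counts put a floor of 3 counts at 0.111 to 0.243 scaled CPM. The Poisson and Wilson intervals and this floor cover counting error only, as read pairs carried no molecular identifiers, while intervals of the edgeR fits come from the spread between lines. No libraries were duplicates (lowest chi-square per degree of freedom 23.6 over 78 pairs). The edgeR fits were tested on simulated data. Alternatives were RLE and upper-quartile factors, totals without factors, no filter, a stricter filter (1 CPM in 6 lines and a mean of 5 CPM), DESeq2 1.42.0, limma 3.58.1 voom, a surrogate variable from sva 3.50.0, other terms or scores, removal of the 8 most abundant features and leaving out lines.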

Additional observations from a re-analysis of the deposited data

How the results depend on the processing

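None of the 4 group comparisons passed under any of 24 alternatives each. The slope of IPK1 passed under all 26, from 0.22 to 0.36. That of MIPS1 passed under 22 of 26. It was 0.14 without ys29 and ys34 together and 0.17 without the group term (edgeR adjusted p = 0.063), and ran from 0.16 (without ys34) to 0.20 (without ys16) over single lines. The cause was not tested.

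The count of genes called between groups, 14, was 23 with upper-quartile factors, 25 without a filter, 22 without ys29 and ys34, 8 without df36 and df43, 1279 with DESeq2, 88 with the storage score and 124 with 1 surrogate variable, and 9 to 32 on leaving out single lines (lowest without ys16 or ys1, highest without df12). The count of slopes, 1722, was 4489 with voom, 463 without ys29 and ys34, 3040 with DESeq2, and 782 (without df12) to 1979 (without df36). DESeq2 called 4 interactions where edgeR called 0.

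Leaving out single lines turned the sign of some values that had passed no test. Other values listed here moved but kept their sign, among them some that had passed. The IPK1 group difference ran from -0.62 (without df12) to 0.085 (without ys1) and was 0.097 without df36 and df43. The interaction ran from -0.044 to 0.082 for IPK1 and from -0.030 to 0.10 for Glyma.19G169000. The transporter share difference ran from -1.32 (without df12) to 2.12 percentage points (without df3). Group differences in log2 ratio ran from -0.014 to 0.40 (IPK1 to Glyma.03G167800), -0.092 to 0.53 (IPK1 to Glyma.19G169000) and -0.078 to 0.12 (between transporters), and that of MIPS1 to IPK1 from 0.61 to 0.97. The r of IPK1 with Glyma.19G169000 ran from -0.085 to 0.33, and of MIPS1 with IPK1 from 0.66 to 0.84. The log2 ratio of SDs ran from -0.21 to 0.66 for IPK1 and from -2.33 to -1.61 for Glyma.19G169000, where it was -1.44 without df36 and df43 (exact permutation adjusted p = 0.121). The r of ratios with the score ran from -0.66 to -0.37 (MIPS1 to IPK1), 0.33 to 0.70 (MIPS1 to Glyma.03G167800), 0.32 to 0.66 (MIPS1 to Glyma.19G169000) and -0.41 to 0.16 (between transporters). Leaving out df36 and df43, the test of ratios with the score and leaving out lines from the relations were chosen after seeing the data, as were scores from the glycinin or conglycinin identifiers alone, which kept both slope calls. With the conglycinin score the MIPS1 slope was only just called (edgeR adjusted p = 0.0497). Depth limits IPK1 most, at 54 counts in ys34.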
